A study of Mus musculus with 2 samples.

Results

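The genes described here are known from germ cells and early embryos or, for Rhox5, from the somatic cells of the gonads and the placenta. The 10 genes are Rhox5, Tex101, Ssx9, Ssxb1, Tdrd12, Tdrd1, Dazl, Ddx4, Sycp3 and Dppa3. They were selected on their intensities and their enriched minus standard differences on these arrays, so their levels and differences are a description and were not tested. Every spot that was not a control and carried one of these symbols, or an older alias that is no other gene's current symbol, was taken, which gave 14 probes for the 10 of 28785 named genes on the array. The working name for the group was germ cell genes expressed in the tumours, and germ cell genes is kept below as a label for all 10. Expression held for 6 of the 10, with Rhox5 among these 6. The other 4 (Tdrd1, Dazl, Ddx4 and Sycp3) were not well above background on either array, where well above background is the scanner software's mark for a spot that stands clear of its background.

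The samples were subcutaneous tumours grown from Panc02 cells, a pancreatic carcinoma line that derives from C57BL/6 mice, in C57BL/6 hosts. Mice were placed at 3 weeks of age in standard caging (the standard environment) or in housing with more stimulation (the enriched environment), received the tumour cells, and stayed in that housing for 5 more weeks. Both groups therefore carried the same injected line and had the same strain, and they differed in housing. Total RNA from the tumours of 6 mice per housing was pooled and hybridised to 1 one-colour array per pool, so that each group (the standard pool and the enriched pool) is 1 measurement, with no spread between mice and no test. A tumour pool is bulk tissue, in which more cells of a type and more RNA per cell cannot be told apart.

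Germ cells use a set of genes that are kept silent in nearly all other adult tissues. The silence is maintained by DNA methylation of their promoters and by repressor complexes that recognise them, among them complexes that contain E2f6 or Mga and its partner Max. Tumours of many tissues express some of these genes again, and those known from tumours and testis are called cancer-testis genes, many of them on the X chromosome. In the germline, Tdrd1 and Tdrd12 act in the Piwi-interacting RNA pathway, in which small RNAs guide Piwi proteins against transposons, while Dazl and Ddx4 are RNA-binding and RNA helicase proteins that define germ cell identity.

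Of the 10 genes, 9 had a window in the RefSeq promoter table of assembly GRCm38.p6, and 12 windows were found for them. The 6 windows printed here belong to the 5 genes whose probes were higher by 2-fold or more in the enriched pool and, for contrast, to Ddx4, which was not detected. The Ssx9 and Ssxb1 probes also list other Ssx genes, so whether both of these genes were transcribed cannot be told. Each is the 250 bases before the gene's start, 5′ to 3′ on the gene's strand, with each CpG dinucleotide, the site of DNA methylation in mammals, in capitals.
Rhox5, chrX:37754358-37754607, plus strand: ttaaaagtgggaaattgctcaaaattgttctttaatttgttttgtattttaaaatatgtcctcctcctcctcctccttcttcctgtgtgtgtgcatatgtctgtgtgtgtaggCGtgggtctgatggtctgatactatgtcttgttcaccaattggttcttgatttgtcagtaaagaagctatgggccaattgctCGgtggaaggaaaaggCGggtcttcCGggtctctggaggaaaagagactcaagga
Tex101, chr7:24672051-24672300, minus strand: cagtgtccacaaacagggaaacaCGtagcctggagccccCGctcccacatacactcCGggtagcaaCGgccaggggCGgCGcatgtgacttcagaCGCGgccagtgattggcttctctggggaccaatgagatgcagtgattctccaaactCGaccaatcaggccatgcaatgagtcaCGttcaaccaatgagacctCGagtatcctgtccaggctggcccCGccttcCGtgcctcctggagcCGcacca
Ssx9, chrX:8748180-8748429, plus strand: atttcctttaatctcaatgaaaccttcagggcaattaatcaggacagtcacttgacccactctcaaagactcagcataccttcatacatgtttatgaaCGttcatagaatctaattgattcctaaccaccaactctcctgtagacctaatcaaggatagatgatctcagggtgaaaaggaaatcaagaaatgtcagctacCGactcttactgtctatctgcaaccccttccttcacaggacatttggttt
Ssxb1, chrX:8413055-8413304, plus strand: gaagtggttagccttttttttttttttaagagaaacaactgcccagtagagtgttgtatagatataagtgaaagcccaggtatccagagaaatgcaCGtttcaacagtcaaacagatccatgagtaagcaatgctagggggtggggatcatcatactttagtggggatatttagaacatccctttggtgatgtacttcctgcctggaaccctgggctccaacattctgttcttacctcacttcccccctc
Tdrd12, chr7:35537716-35537965, minus strand: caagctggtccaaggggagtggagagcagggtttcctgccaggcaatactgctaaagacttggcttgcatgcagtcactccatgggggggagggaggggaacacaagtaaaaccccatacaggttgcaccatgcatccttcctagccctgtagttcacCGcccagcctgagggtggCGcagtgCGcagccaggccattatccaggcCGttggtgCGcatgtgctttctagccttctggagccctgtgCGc
Ddx4, chr13:112652311-112652560, minus strand: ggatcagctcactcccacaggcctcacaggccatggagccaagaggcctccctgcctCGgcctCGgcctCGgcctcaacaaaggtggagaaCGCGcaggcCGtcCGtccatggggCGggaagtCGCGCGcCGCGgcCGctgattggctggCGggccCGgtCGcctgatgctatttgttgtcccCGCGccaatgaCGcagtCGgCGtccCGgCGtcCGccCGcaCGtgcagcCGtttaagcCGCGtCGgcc

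The windows differed widely in CpG content. The Rhox5 window held 4 CpG, the Ssx9 window 2 and the Ssxb1 window 1, and the first Tdrd12 window held 6. Over all 32851 windows of this length in the table, which cover 27025 genes, the median was 6 CpG with quartiles of 2 and 16. The Tex101 window, with 14 CpG, lay between the median and the upper quartile. Ddx4 was the most CpG-dense of the 12 windows, with 31 CpG, a GC content of 70.4% and an observed to expected CpG ratio of 1.004 against a median of 0.37 over all windows. Dazl had 20 CpG and Sycp3 12, and the 3 alternative starts of Tdrd1 had 11, 22 and 3. Of the 5 genes whose probes were higher in the enriched pool, Tex101 was the one with a window above the median of all windows. These 5 include Ssx9 and Ssxb1, which their probes do not separate. Of the 4 undetected genes each had at least 1 window above the median, while 1 Tdrd1 window, with 3 CpG, lay below it. The groups were set by the differences on which the genes were selected, and the windows are few. Nothing is therefore read from this contrast.

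**Figure D1:**
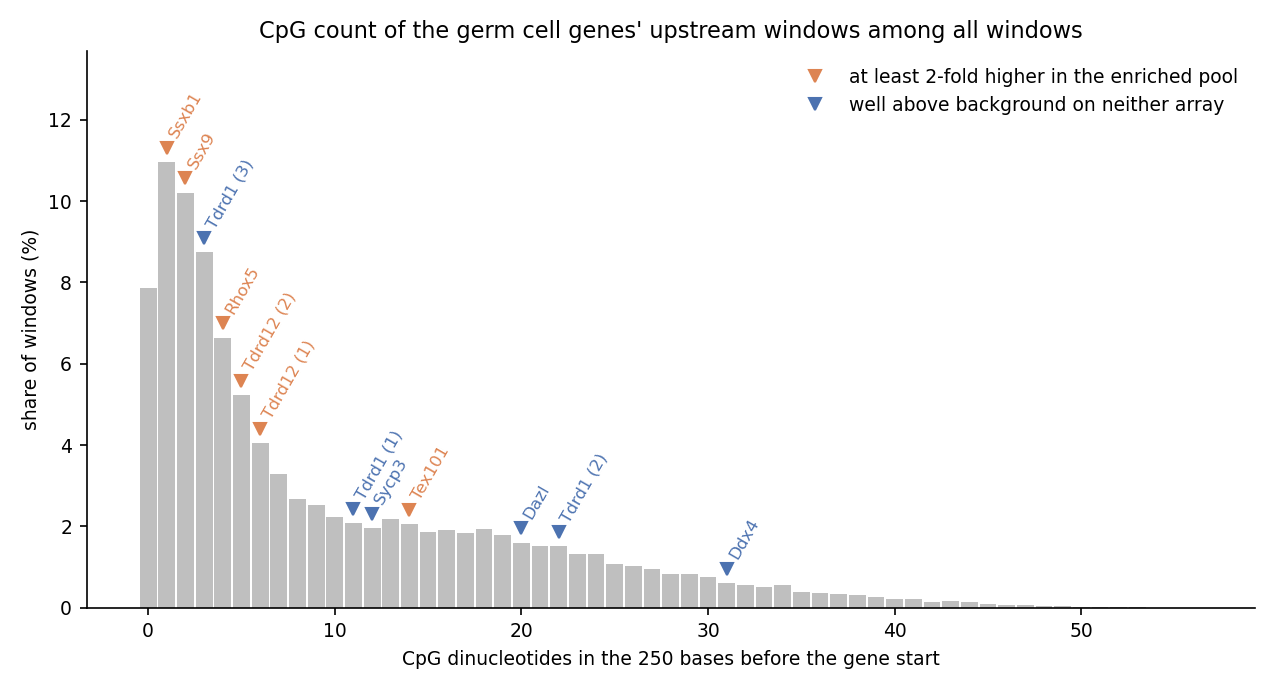
The grey bars give the share of all 32851 upstream windows (vertical axis, percent) with each number of CpG dinucleotides in the 250 bases before the gene start (horizontal axis). Triangles mark the windows of the germ cell genes, orange for genes with probes higher by 2-fold or more in the enriched pool and blue for genes detected on neither array. Orange windows run from 1 to 14 CpG and blue ones from 3 to 31. The probes do not separate Ssx9 from Ssxb1.

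Short motifs, 4 in all, were searched for on both strands of the windows and each was counted on its own; the first 3 contain a CpG, so they overlap the CpG count. TCCCGC, the core of the E2F6 site, occurred once in the windows of Ddx4 and Sycp3 and in no window of the other 7 genes, and 16.9% of all windows held it. The E-box CACGTG, which Max-containing dimers bind, occurred once in Ddx4, 2 times in Sycp3 and once in each of the first 2 Tdrd1 windows, against 6.02% of all windows. TTCCGG, an ETS factor motif, occurred once in the Rhox5 window and in 12.0% of all windows. CCAAT, the NF-Y box, occurred 3 times in the Rhox5 window, where a pair of matches lies on opposite strands of the same stretch, and 4 times in the Tex101 window, and it occurred also in the windows of Dazl (1) and Ddx4 (2). Of all windows, 33.8% held at least 1. A match is only a description of the letters in the window.

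Of the 10 genes, 6 were measured on both arrays, beside 72.4% of all named genes. Of these 6, 5 were higher by 2-fold or more in the enriched pool. Over all 20852 genes measured on both arrays, 5.71% reached a 2-fold increase and 9.46% a 2-fold decrease, and the median difference was 0.03. The rule that named the genes drew on this comparison, so nothing is read from the count. None of the 6 was lower by 2-fold or more, and their median difference was 2.68. A level is log2 of the spot intensity minus log2 of the 75th percentile of its array. Differences are enriched minus standard levels, also on the log2 scale. By probe, 6 of the 7 measured on both arrays reached a 2-fold increase, beside 5.55% of all such probes.

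**Figure D2:**
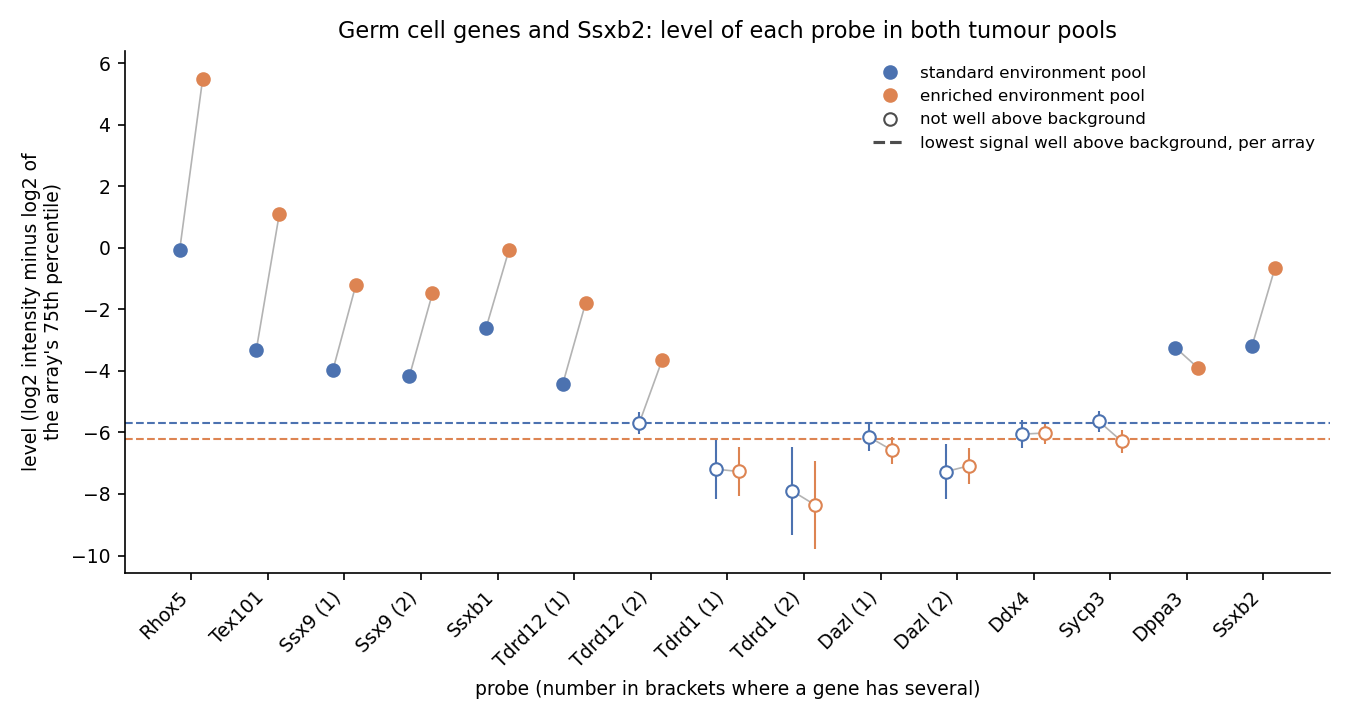
Levels (vertical axis, log2 intensity minus log2 of the 75th percentile of the array) of each of the 14 probes and of the probe for Ssxb2 in the standard (blue) and enriched (orange) pools, 1 array each; bars are the scanner software's error and dashed lines the lowest level well above background on each array. Rhox5 runs from -0.07 to 5.49, and the probes of Tdrd1, Dazl, Ddx4 and Sycp3 are open circles in both pools, which marks them as not well above background.

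Rhox5, an X-linked homeobox gene expressed in Sertoli and granulosa cells of the gonads and in the placenta, and known from many mouse tumour lines, showed the largest difference of the 10. Its probe gave an intensity of 719 ± 71.97 in the standard and of 44200 ± 4420 in the enriched pool, where the error is the software's error of 1 spot. The levels were -0.07 and 5.49, a difference of 5.56 ± 0.20 (software errors of both spots combined) or 47.0-fold. Over all measured genes, 1 gene had a larger increase. The array design lists no mm7 position for this probe, and its annotation names Rhox5 and no other gene.

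Of 15 other listed genes of the Rhox cluster, 6 had a probe and 3 were measured on both arrays. None of these 3 was 2-fold apart, and nothing is known here of the genes without a probe. Rhox3a was at -4.25 in the standard and -4.84 in the enriched pool, a difference of -0.60 ± 0.26. Rhox4e differed by 0.07 ± 0.20 and Rhox9 by -0.09 ± 0.27, and the sign of both changed among the processing alternatives, with ranges of -0.07 to 0.13 and -0.27 to 0.14. Rhox2a, Rhox6 and Rhox11 were well above background on neither array. The median of the 3 measured relatives was -0.09, and it ranged from -0.27 to 0.08 over the alternatives.

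Tex101, a glycosylphosphatidylinositol-anchored protein of the male germ cell surface that is needed for sperm to fertilise, followed in size. Its probe gave 75.4 ± 8.18 in the standard pool and 2096 ± 210 in the enriched pool. The levels were -3.32 and 1.09, a difference of 4.41 ± 0.21 or 21.3-fold, which 5 genes on the array exceeded. The probe lies at chr7:21456064-21456123 of mm7, and no annotation of that build was used here to place it in an exon.

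The Ssx genes are X-linked cancer-testis genes whose proteins repress transcription in association with Polycomb complexes. The first Ssx9 probe gave intensities of 47.9 ± 5.75 and 425 ± 42.7 in the standard and enriched pools, and the second gave 42.0 ± 5.35 and 353 ± 35.4. Their differences were 2.77 and 2.68, with a mean of 2.72 ± 0.06 (SD between 2 probes) or 6.61-fold. The Ssxb1 probe gave 124 ± 12.7 and 941 ± 94.2, a difference of 2.54 ± 0.21 or 5.82-fold. All 3 probes were therefore higher in the enriched pool by similar amounts.

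Ssxb2, a further gene of the family that is not among the 10, gave 82.6 ± 8.78 and 627 ± 62.7, a difference of 2.54 ± 0.21. These 4 probes do not separate the family: their annotations list 7 Ssx genes between them (Ssx9, Ssxb1, Ssxb2, Ssxb3, Ssxb5, Ssxb9 and Ssxb10), and each probe lists more than 1. Over the 4 probes the mean difference was 2.63 ± 0.11 (SD), from 2.54 to 2.77, so which Ssx genes were transcribed cannot be told from these values. On mm7 the probes lie at chrX:7182638-7183171 and chrX:7183139-7183809 for Ssx9, chrX:6850066-6850600 for Ssxb1 and chrX:6887651-6888113 for Ssxb2. The upstream windows fell into 2 kinds. Aligned end to end, the Ssxb1 window was 91.7% identical to that of Ssxb3 and 88.8% identical to that of Ssxb2. The Ssx9 window was 94.8% identical to that of Ssxb5, while Ssx9 and Ssxb1 shared 47.5%. No unrelated windows were aligned, so whether 47.5% is more than such windows would share cannot be told.

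Tdrd12, a Tudor domain helicase of the Piwi-interacting RNA pathway that the array calls 2410004F06Rik, was measured by 2 probes. The first (chr7:32386653-32386712 of mm7) gave 34.8 ± 4.57 in the standard and 284 ± 28.6 in the enriched pool, which is a difference of 2.64 ± 0.24 or 6.25-fold. The second (chr7:32415057-32417014) was not well above background in the standard pool, at 14.5, and gave 78.9 in the enriched pool. It was at least 4.12-fold higher there, the bound being taken against the higher of the probe's own signal and the lowest signal well above background on the standard array. Over all 940 genes that were well above background on the enriched array only, 13.3% had a bound of at least 2-fold. Both Tdrd12 probes were thus higher in the enriched pool.

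Tdrd1, the Tudor protein that binds methylated Piwi proteins in germ granules, was not detected with either of its probes. The first gave 5.14 ± 3.43 and 6.38 ± 3.51 in the standard and enriched pools. The second gave 3.14 and 2.99, and of the 153 negative control spots 77 were at least as bright on the standard and 91 on the enriched array. Of the other genes named Tdrd, Tdrd7 differed by 0.10, Tdrd3 by -0.04 and Tdrd6 by -0.22, with ranges of 0.09 to 0.18, -0.07 to 0.16 and -0.27 to 0.18 over the alternatives. Tdrd5 differed by -0.38 and Tdrd9 was not detected. Tdrd12 was the one of these 7 Tdrd genes that was at least 2-fold apart, and for Tdrd1 and Tdrd9 no difference could be given.

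Dazl, an RNA-binding protein that promotes translation in germ cells, gave 10.6 ± 3.26 and 10.3 ± 3.07 with its first probe and 4.86 ± 3.01 and 7.24 ± 2.91 with its second. Ddx4, the germ cell helicase also called Vasa, gave 11.3 ± 3.53 in the standard and 15.2 ± 3.63 in the enriched pool. Sycp3, a lateral element protein of the synaptonemal complex that pairs meiotic chromosomes, gave 15.1 ± 3.50 and 12.6 ± 3.29. Between 1 and 3 negative control spots per array were as bright as these probes, and none of the probes was well above background, so no fold is given. Probes counted as well above background went down to intensities of 14.6 (standard) and 13.3 (enriched), and amounts near or below these were not detectable. Of all named genes, 20.8% were well above background on neither array.

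Of the other synaptonemal complex genes, Sycp1 was not detected, and Sycp2 was well above background in the enriched pool only, with a log2 bound of 0.96 for the brighter of its probes. Dppa3, also called Stella, protects DNA methylation in the early embryo and marks primordial germ cells. Its probe gave 79.5 ± 8.57 in the standard pool and 65.3 ± 7.30 in the enriched pool. The difference was -0.67 ± 0.22. It was the one measured gene of the 10 that was lower in the enriched pool, by less than 2-fold. The probe (chr6:122666937-122666996 of mm7) also lists a predicted transcript. Dppa2 and Dppa5a were lower too, with differences of -0.47 and -0.86, Dppa1 was not detected, and Dppa4 was well above background on the enriched array only, below the reference level that would give a bound.

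**Figure D3:**
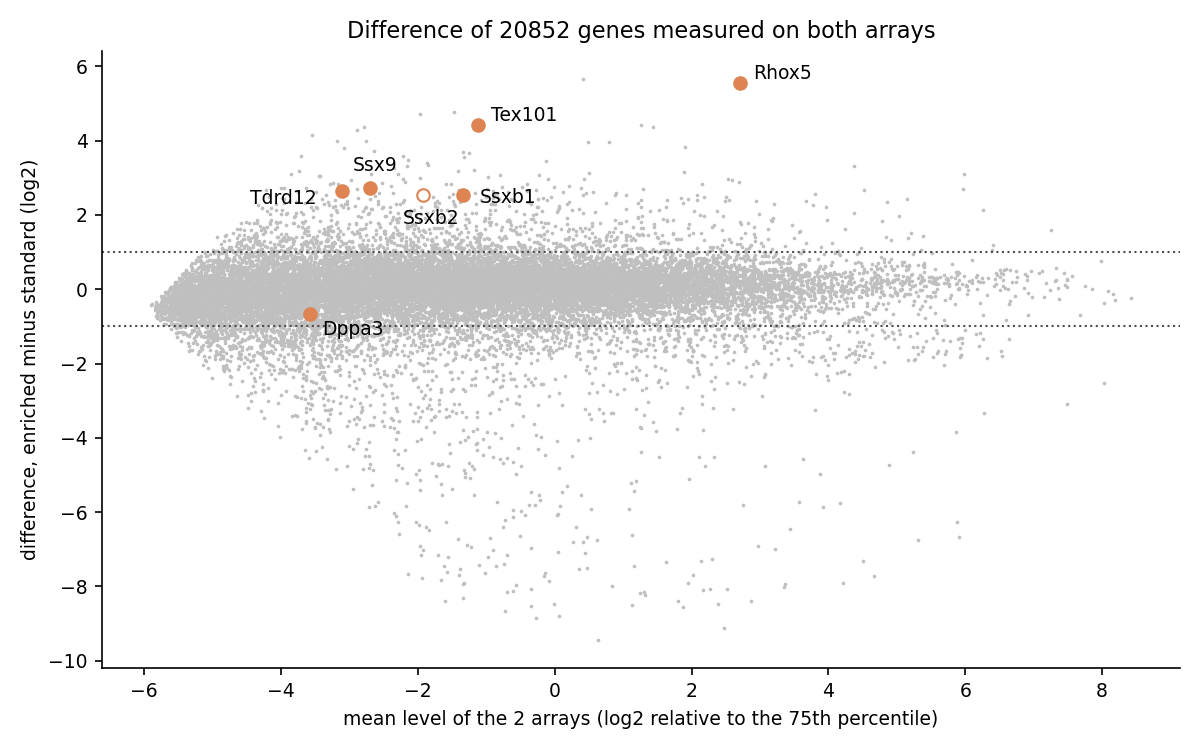
Difference between the pools (vertical axis, log2, enriched minus standard) against the mean level of both arrays (horizontal axis, log2 relative to the 75th percentile) for 20852 genes measured on both arrays in grey, with the 6 measured germ cell genes in orange and Ssxb2 as an open circle; dotted lines mark 2-fold. Rhox5 at 5.56 and Tex101 at 4.41 lie at the upper edge of the plot, and Dppa3 lies between the dotted lines at -0.67.

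To see whether other germline genes differed between the pools, 7 lists of germline genes without the 10 genes were described. Together they held 132 genes with a probe, of which 67 (50.8%) were measured on both arrays and 44 (33.3%) on neither. Over all named genes these shares were 72.4% and 20.8%. Of the 67, 6 (8.96%) showed a 2-fold increase or more in the enriched pool and 7 (10.4%) a 2-fold decrease or more, beside 5.71% and 9.46% over all genes, and the median was -0.09. The highest difference was 2.54 for Ssxb2, whose probe lists genes of the Ssx family as above. Some of the 67 had high levels in both pools, among them Ifitm3 (4.82 standard, 5.44 enriched), Klf4 (3.17, 3.65) and Tdrd7 (2.06, 2.16). The shares and the median are therefore not limited to genes that are silent outside germ cells.

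Among X-linked cancer-testis genes, 8 of 22 were measured on both arrays, of which Ssxb2 was higher by 2-fold or more and another was lower by as much. The lower one was Mageb5, at -3.00 in the standard and -5.77 in the enriched pool, a difference of -2.78 that ranged from -2.79 to -1.37 over the alternatives. Magea4 was well above background in the standard pool only, with a log2 bound of 1.49 in that direction, and 57.2% of all genes seen on the standard array only had a bound of 2-fold or more. The list median of 0.32 ranged from -0.09 to 0.55 over the alternatives. Members of this class thus lay on both sides of 0 by more than 2-fold.

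Among germ granule and Piwi-interacting RNA genes, 13 of 24 were measured on both arrays and 1 was higher by 2-fold or more. This was Piwil2, a Piwi protein itself, at -4.15 in the standard and -2.83 in the enriched pool, a difference of 1.32 that ranged from 0.69 to 1.49. Piwil4 differed by 0.01, and Piwil1, Mov10l1 and Asz1 were detected on neither array. The list median was -0.02, with a range of -0.30 to 0.03.

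Among meiosis genes, 14 of 26 were measured, with 2 increases and 1 decrease of 2-fold or more. The higher ones were Trip13, an ATPase that also serves the mitotic spindle checkpoint, at 1.19, and Syce2, a central element gene, at 1.06. Stra8, the retinoic acid target that starts meiosis, was lower, with a difference of -1.37, and Tex15 was well above background in the standard pool only, with a log2 bound of 3.32. Syce2 and Stra8 each fell short of 2-fold in 1 of the 9 settings tried. The list median was -0.19, with a range of -0.28 to 0.02.

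Lists of spermatid, oocyte and pluripotent cell genes were described in the same way. Of 14 measured spermatid genes none was higher by 2-fold or more and 3 were lower by 2-fold or more: the heat shock gene Hspa1l with a difference of -3.65, the glycolytic gene Pgk2 with -1.76 and the transition protein gene Tnp2 with -1.04. Of 4 measured oocyte genes, Oog1 was higher by 1.79 and the nucleoplasmin Npm2 by 1.095, and Zp3 of the zona pellucida was lower, with a difference of -1.004. Tnp2 and Zp3 were 2-fold apart in 5 of the 9 settings and Oog1 in 8, with a range of 0.58 to 2.14 for Oog1 and of -3.67 to -2.53 for Hspa1l. Of 11 measured genes of pluripotent and primordial germ cells none was higher by 2-fold or more and the alkaline phosphatase gene Alpl was lower, with a difference of -4.02 that ranged from -4.05 to -2.97, while the core factors Pou5f1 and Nanog were detected on neither array. Esrrb was well above background in the standard pool only, with a log2 bound of 3.95.

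Because Rhox5 is a gene of the somatic cells of the gonads and of the placenta, markers of both were described as well. Of 20 gonad soma genes 14 were measured, none was higher by 2-fold or more, and the steroidogenic enzyme gene Cyp11a1 was lower, with a difference of -1.48 that was under 2-fold in 1 of the 9 settings. Fshr, the follicle-stimulating hormone receptor of Sertoli and granulosa cells, was well above background in the standard pool only, with a log2 bound of 1.13. The list median was -0.17, with a range of -0.27 to -0.08, its summed signal was 0.0177% of the array in the standard and 0.0183% in the enriched pool, and Wt1, Dmrt1, Lhcgr, Cyp19a1 and Hsd3b6 were detected on neither array. Of 14 placenta genes 5 were measured and 9 were detected on neither array, among them Tpbpa, Plac1, Gcm1 and Psg23. Cdx2, a trophoblast and intestinal transcription factor, was higher by 2.58. Eomes, a factor of trophoblast and of T and natural killer cells, was higher by 1.97, with a range of 1.15 to 2.08. The other 3 measured placenta genes were lower by less than 2-fold, Ascl2 at -0.82, Psg17 at -0.70 and Prl3b1 at -0.41. The list median was -0.41.

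**Figure D4:**
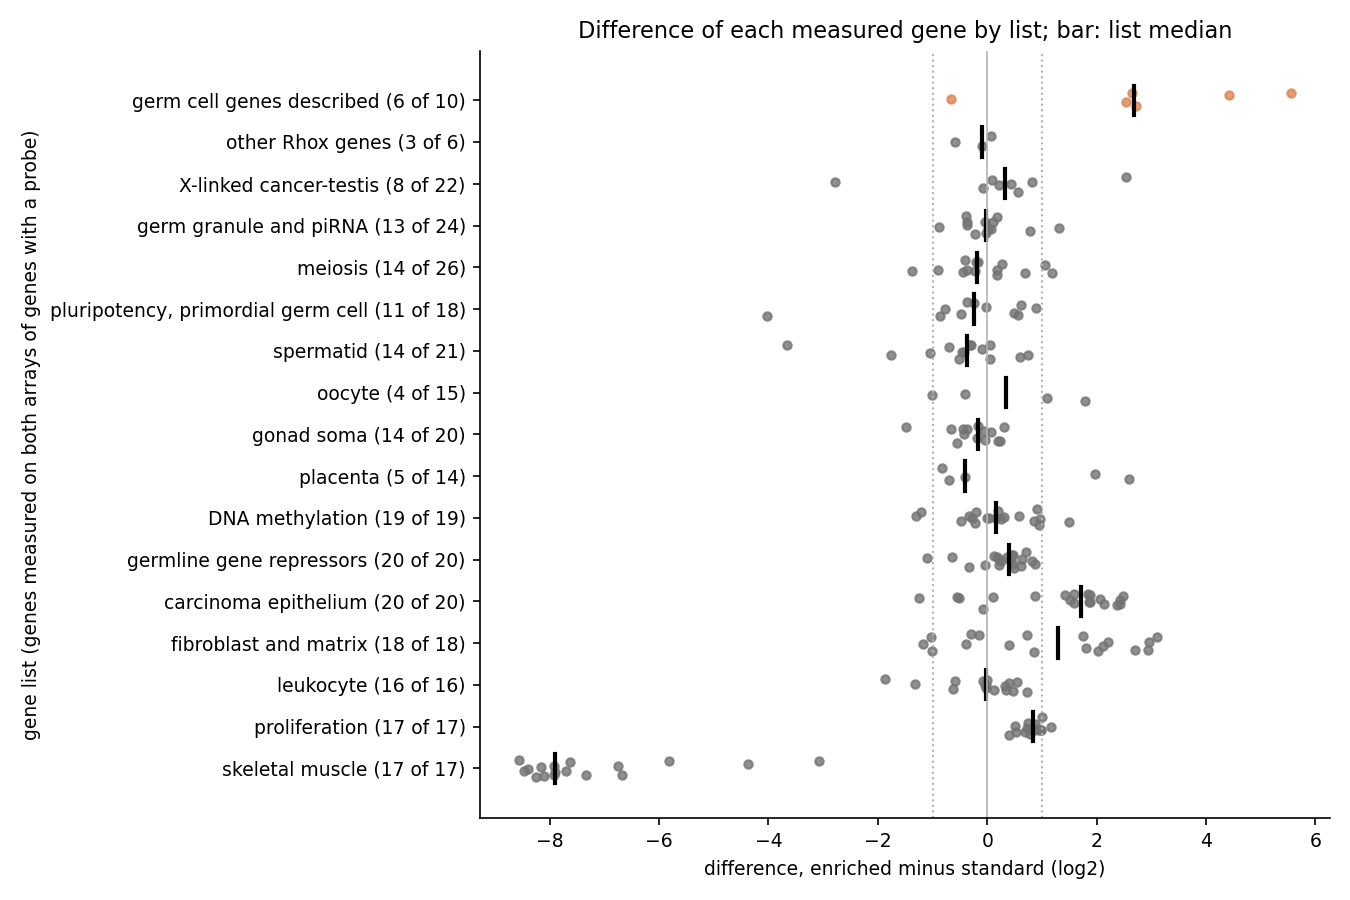
Each point is 1 gene measured on both arrays, placed by its difference between the pools (horizontal axis, log2, enriched minus standard) in its gene list (rows, with the number measured of the number with a probe); black bars are list medians and dotted lines mark 2-fold. The germ cell genes (orange) have a median of 2.68, the other germline lists have medians between -0.37 and 0.34, carcinoma epithelium 1.72 and skeletal muscle -7.90. The 0.34 is that of the oocyte list, with 4 measured genes, and it ranged from -0.43 to 0.40 over the 9 settings.

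Genes that write, read and remove DNA methylation and repressors of germline genes were described next. All of those with a probe were measured on both arrays, 19 of 19 and 20 of 20. Of the 21 listed methylation genes, the demethylation genes Tet1 and Tet3 had no probe. Their relative Tet2 differed by 0.0007, with a range of -0.10 to 0.06. Of the methylation genes, 1 was higher by 2-fold or more, Gadd45b at 1.501, and 2 were lower by 2-fold or more, Gadd45g at -1.31 and Gadd45a at -1.20; these are stress genes that have also been linked to demethylation. The maintenance methyltransferase Dnmt1 differed by 0.26, Dnmt3a by -0.49 and Dnmt3b by 0.86, and Uhrf1, which guides Dnmt1, by 0.97. Uhrf1 reached 2-fold in 4 of the 9 settings, and Hells, a remodeller needed for methylation, and Zbtb33, a reader of methylated DNA, in 1 each. The list median was 0.16, with a range of -0.01 to 0.24. Of the repressors, none was higher by 2-fold or more and E2f6 was lower by 2-fold or more, at -0.24 in the standard and -1.33 in the enriched pool. Its difference was -1.098 ± 0.34 (SD between 2 probes), from -1.34 to -0.90 over the 9 settings and past 2-fold in 6 of them. Of the 20 repressors, 16 had a difference above 0 and 4 below 0, and the list median was 0.40. Ehmt2, Max and Trim28, the corepressor of zinc finger proteins, had the highest mean levels and differed by 0.61, 0.37 and 0.88. Mga differed by -0.65 and Setdb1 by 0.47. These arrays do not measure DNA methylation itself.

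Marker genes of other cell types also differed between the pools. All 17 skeletal muscle genes were lower in the enriched pool, with a median of -7.90, and their summed signal was 4.70% of the array in the standard and 0.112% in the enriched pool. The defining genes of carcinoma epithelium, all 20 of them measured on both arrays, had a median of 1.72, with 14 increases and 1 decrease of 2-fold or more, and a summed signal of 0.298% and 1.19%. Of 18 fibroblast and matrix genes, 9 showed an increase and 3 a decrease of 2-fold or more, with a median of 1.303 and summed signals of 0.338% and 0.713%. The 17 proliferation genes had a median of 0.83, with 1 higher by 2-fold or more, and the 16 leukocyte genes a median of -0.01, with no increase and 2 decreases of 2-fold or more. The part of these marker differences in the differences of the germ cell genes was not tested.

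The differences of the germ cell genes were set beside those of the epithelium genes. The germ cell genes were selected with these same differences known. Their order against the marker genes is therefore a description, and nothing is read from it. None of the 20 epithelium genes differed by as much as Rhox5, Tex101, Ssx9, Ssxb1 or Tdrd12, the highest being Tff2 at 2.48. Rhox5 exceeded the epithelium median by 3.84 and Tex101 by 2.70 on the log2 scale. Ssx9, Tdrd12 and Ssxb1 exceeded it by 1.01, 0.93 and 0.82. For Rhox5 and Tex101 no epithelium gene was higher in any of the 9 settings, but for the other 3 the order depended on the setting. With normexp, Ssx9 at 1.66 was exceeded by 9 of the 20, Tdrd12 at 1.57 by 10 and Ssxb1 at 2.07 by 5. Without the filter on dim probes 4 exceeded Tdrd12 at 2.35, and Ssxb1 was exceeded by 2 after quantile normalization and by 1 in the authors' table. Dppa3 lay 2.39 below the epithelium median, a signed difference of -2.39, and 19 of the 20 epithelium genes exceeded it. Of 18 fibroblast genes, 3 exceeded Ssx9 and 4 exceeded Ssxb1 and Tdrd12, and none exceeded Rhox5 or Tex101.

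Rhox5 and the Ssx genes lie on the X chromosome, and the other genes of that chromosome had a median near 0. Without them, 468 X-linked genes were measured, of which 3.85% showed an increase and 8.97% a decrease of 2-fold or more, with a median of -0.01. The 14225 autosomal genes gave 6.17% and 10.1%, with a median of 0.02. The order of genes on GRCm38.p6 was used to find the 5 nearest measured genes on each side of each gene. Around Rhox5 these 10 genes had a median of -0.37 and ran from -1.47 to 0.91, none higher by 2-fold or more, and the lowest was Ndufa1, a subunit of respiratory complex I. The genes around the Ssx cluster had a median of 0.19, and Lancl3 among them was higher by 2.22.

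Around Tex101 the 10 neighbours had a median of 0.12. The nearest on one side, Lypd3, which belongs to the same family of Ly6 and urokinase receptor domain proteins, was higher by 2.42, and Zfp428 was higher by 1.07, while Cd177, the nearest on the other side and also a gene of that family, was lower, at -1.53. Around Tdrd12 the median was 0.55, and Rhpn2 among the neighbours was higher by 2.06. The neighbours of Ddx4 had a median of 0.20, from -0.62 to 0.42. Around Dppa3 the median was -0.46, and the matrix gene Mfap5 differed by 2.23 and the glucose transporter gene Slc2a3 by -1.14. Around Tdrd1 and Dazl the medians were 0.02 and -0.32, and around Sycp3 the median was -0.02 with the muscle gene Mybpc1 at -8.67.

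**Figure D5:**
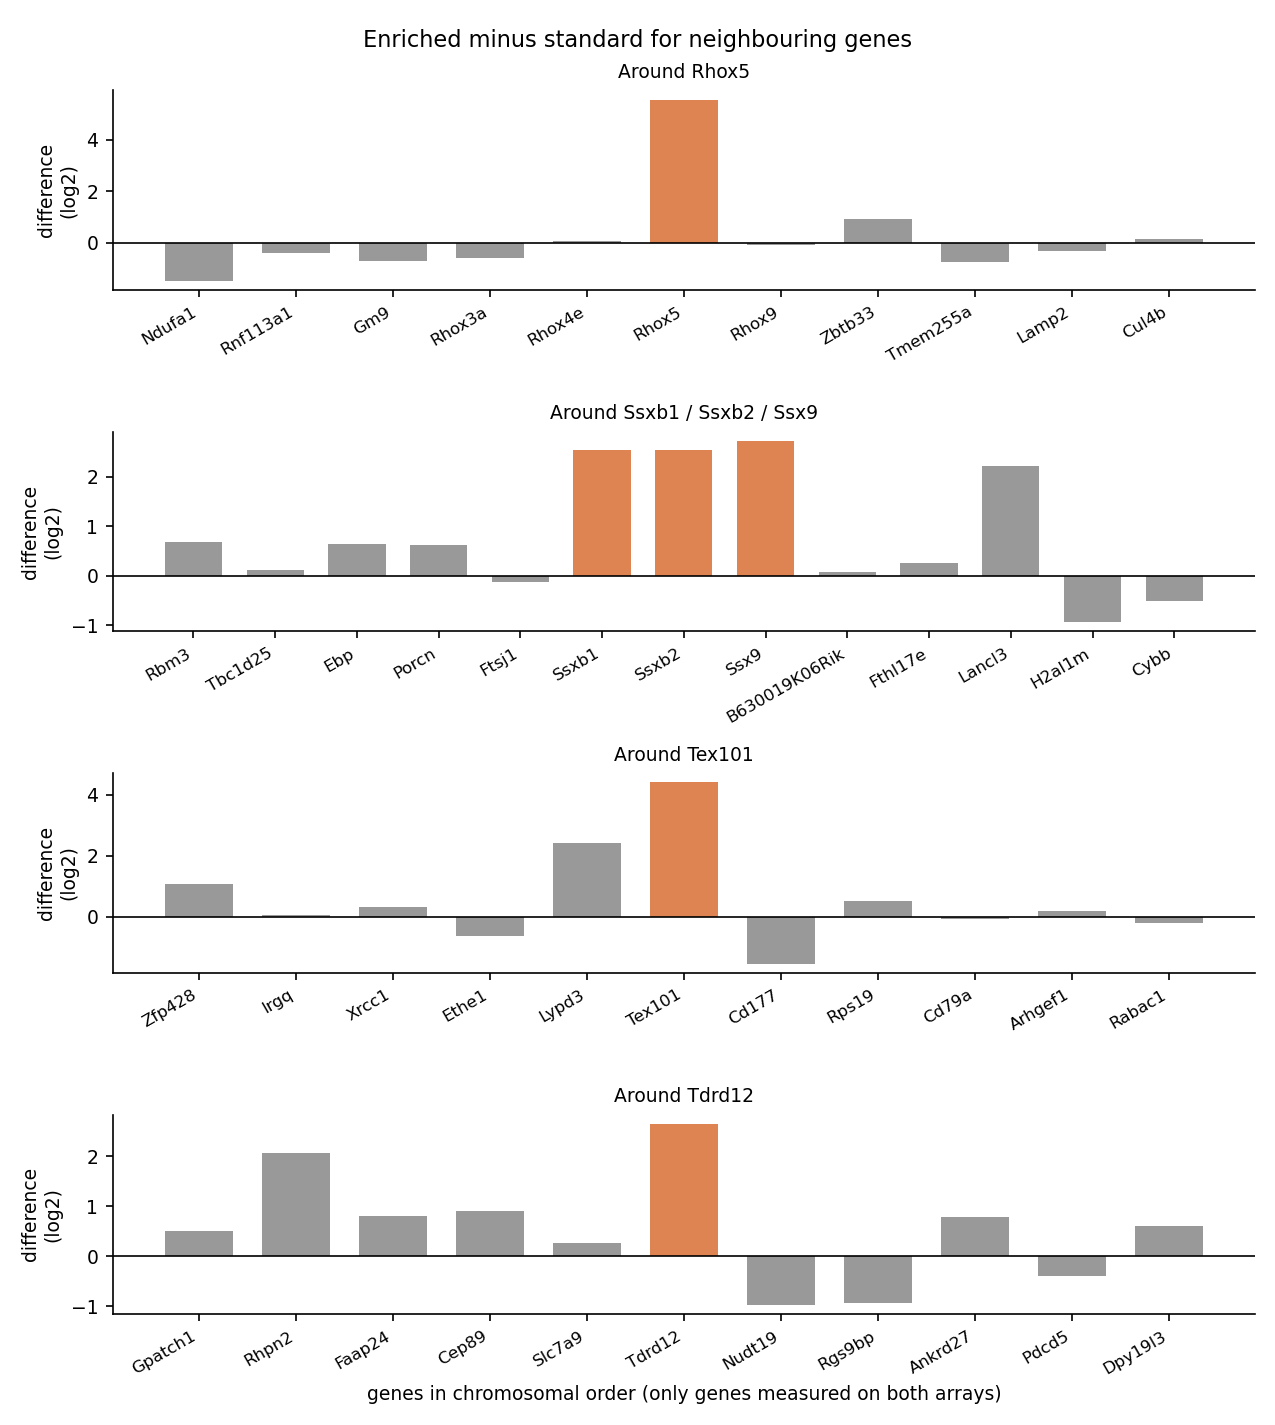
Bars give the difference between the pools (vertical axis, log2, enriched minus standard) of Rhox5, the 3 Ssx genes with a probe, Tex101 and Tdrd12 in orange and of their 5 nearest measured neighbours on each side in grey, in chromosomal order and not to distance. The neighbours of Rhox5 lie between -1.47 and 0.91, and Lypd3 beside Tex101 stands at 2.42.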

How the data were processed

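RNA from Panc02 tumours, pooled per housing, was labelled with Cy3 and hybridised to 2 arrays of 1 slide, per the labels' protocols and file headers. The deposited files hold a background-subtracted linear intensity per spot with the software's error and a p-value of each spot against its background, which the submitters' processing notes credit to Agilent Feature Extraction 10.7.1.1. Its subtraction affects dim spots most. A deposited log2 table of 30319 probes, whose scaling and centring are not given in the sources used here, was used as an alternative; its columns had medians of 8.54 (standard) and 8.56 (enriched) and correlated with log2 intensity over probes with r = 1.00, so its direction is that of the scanner values.

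Levels were log2 intensity minus the array's 75th percentile (753 and 984 before the logarithm). Control spots were left out. Of the 43379 spots that were not controls, 77.2% and 77.4% were well above background and 0 were saturated. Among these 43379, 66 and 70 were outlier spots, which were then left out too. Repeat spots of a probe were averaged (245 probes, median SD 0.058 and 0.072), then probes measured on both arrays. Of 41174 probes, 22951 were named by accession through a RefSeq table (GRCm38.p6). Genes with several probes (6608) had a median SD between probes of 0.17.

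The genes, the 16 gene lists and the comparisons were chosen with earlier results of these data known. In the germline, gonad, placenta, methylation and repressor lists, genes at least 2-fold apart were named first, at most 6. The further genes named there were not picked by a fixed rule. With 1 array per group no test was made, and precision is limited by the number of arrays. The steps were tested on simulated data. Python 3.11.15, R 4.3.3 and limma 3.58.1 (normexp with offset 50) were used. The alternatives were normexp, 3 other scalings, no filter on dim probes, outlier spots kept, the authors' table, the brightest probe per gene, and thresholds of 1.5-fold and 4-fold.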

Additional observations from a re-analysis of the deposited data

How the results depend on the processing

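Of 48 values of the 6 measured genes under 8 alternatives, 43 moved by less than the software's error of the difference and none changed sign. The other 5 were Tex101 at 3.63, Ssxb1 at 2.07, Ssx9 at 1.66 and Tdrd12 at 1.57 with normexp in place of the software's background subtraction, and Tdrd12 at 2.35 without the filter on dim probes. Normexp raises dim spots by its offset, which shrinks their ratios. Over all settings Rhox5 ranged from 5.50 to 5.71 and Dppa3 from -0.68 to -0.49. The count of genes higher by 2-fold or more was 5 in every alternative, the thresholds of 1.5-fold and 4-fold included. The count lower by 2-fold or more was 0 except with the 1.5-fold threshold, where it was 1 (Dppa3). Of 128 list medians 118 moved by less than the median software error of their genes and 10 by more. Over all genes, normexp gave 668 higher and 1323 lower and shifted the median by -0.10, and using every probe gave 1673 and 3796 with a shift of -0.14, against 1191 and 1972. No paired analysis was possible because each group is 1 array. Signal over background limits Tdrd1, Dazl, Ddx4 and Sycp3, for which no difference can be given.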
